A study of Mus musculus with 12 samples.

Results

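The MHC class II genes and their coactivator Ciita were followed across the 4 conditions of an mRNA sequencing experiment in bone marrow-derived macrophages (BMDMs) of the mouse, cells that mature into macrophages in the dish. The members were the rows named H2-Aa, H2-Ab1, H2-Eb1, H2-DMa, H2-DMb1, H2-DMb2, Cd74 and Ciita in the expression tables. All 8 names were found, each with 1 row, out of 23847 rows for 23361 gene symbols. All 8 also reached 1 FPKM in some sample, the condition for being tested, as did 11191 rows. FPKM divides the fragments of a gene by its length and by the depth of its library, so levels can be compared between genes of different length.

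All cells came from wild-type C57BL/6 mice aged 8 to 12 weeks and were differentiated for 6 days with L929 cell supernatant, the source of the growth factor MCSF. Control samples received no further agent. The IL-4 group received 20 ng/ml of IL-4, a cytokine that drives alternative macrophage polarization, for 24 h. The LPS group received 100 ng/ml of LPS, an outer membrane molecule of bacteria that macrophages sense through TLR4, for 3 h. The IL-4+LPS group received IL-4 for 24 h and then LPS for 3 h. Each group held 3 samples, 12 in all. The study describes 3 animals over 2 experiments without saying which sample came from which, so the spread between samples may be partly technical.

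MHC class II molecules hold peptides from engulfed material at the cell surface, where helper T cells read them. H2-Aa and H2-Ab1 encode the alpha and beta chains of the I-A molecule, and H2-Eb1 encodes the beta chain of the I-E molecule. Cd74, the invariant chain, escorts newly made class II molecules and blocks their groove until proteases remove it. H2-DMa pairs with H2-DMb1 or H2-DMb2 to form H2-M, which exchanges the last fragment of the invariant chain for peptide. Ciita binds no DNA itself but docks on factors assembled over the X and Y boxes of class II promoters, and its own level is known to limit class II transcription. Macrophages carry modest class II levels that interferon-gamma raises, and IL-4 is known to raise them too.

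The RefSeq promoter set of build GRCm38.p6, the assembly also called mm10 that the files used, held a promoter for 5 of the 8 members. None was used for H2-Ab1, Cd74 or Ciita. The windows ran from 250 bases before to 50 bases after the annotated start and were searched on both strands. The motifs were the X-box core GNAACNNNT, a stricter form GCAACNNAT, the Y box ATTGG, and the core followed on the same strand by ATTGG that starts 10 to 35 bases after its end. Among all 32851 promoters of the same length, 32.5% held the core, 1.74% the stricter form, 37.4% the Y box and 0.983% the ordered pair. The stretches just upstream of the start are shown for these members except H2-DMa, since these boxes are where Ciita is recruited. No searched letters fell in the stretches just upstream of the H2-DMa starts. Capitals mark X-core and Y-box letters on the strand of the gene, and the longer stretches leave out bases inside an exon of the gene in GENCODE vM21. That annotation starts H2-DMb1 at base 34153072, upstream of the RefSeq start, so its boxes lie in an exon there and only the short sites around them are shown.

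H2-Aa, chr17:34287824-34287943, minus strand: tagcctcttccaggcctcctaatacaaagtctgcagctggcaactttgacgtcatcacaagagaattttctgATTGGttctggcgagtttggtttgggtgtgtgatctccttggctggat
H2-Eb1, chr17:34305747-34305866, plus strand: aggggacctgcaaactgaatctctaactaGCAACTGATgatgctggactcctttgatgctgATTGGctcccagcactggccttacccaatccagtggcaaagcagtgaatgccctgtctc
H2-DMb2, chr17:34145129-34145235, plus strand: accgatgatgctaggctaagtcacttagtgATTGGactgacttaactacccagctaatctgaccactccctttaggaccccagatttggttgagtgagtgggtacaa
H2-DMb1, X site, chr17:34153089-34153112, plus strand: tttacctaGTAACTGATgatgcta
H2-DMb1, Y site, chr17:34153122-34153145, plus strand: actcagtgATTGGtctgacctgcc

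H2-Eb1 and H2-DMb1 held the ordered pair, with the X core 91 and 94 bases and the Y box 59 and 61 bases before the start. By these exact letters, H2-Aa and H2-DMb2 held the Y box alone, 48 and 90 bases before the start. An X box that departs from GNAACNNNT is not counted, so these promoters cannot be said to lack it. The H2-Aa stretch holds gcaactttg upstream of its Y box, which misses the core only at its last base. H2-DMa has 2 starts in the set, and neither of its windows held the pair. The first held a lone X core 227 bases and the second a lone Y box 198 bases before its start. The pair was also present in the promoters of H2-Ob and H2-Eb2, class II genes that stayed under 1 FPKM in all 12 samples. The RefSeq start of H2-DMb2 lies 167 bases and that of H2-Aa 52 bases from the end of the row in the files, and the starts of H2-Eb1 and H2-DMb1 coincide. H2-Eb1 and H2-DMb1 share the pair and differed in their responses below.

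**Figure D1:**
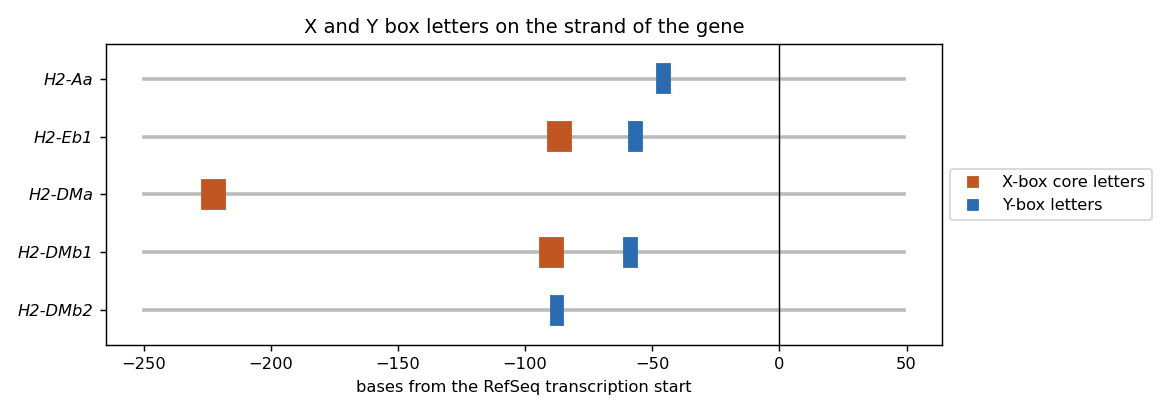
Positions of X-box core letters (orange) and Y-box letters (blue) on the strand of each gene, in bases from the RefSeq transcription start (vertical line), for the 5 members with a promoter in the set; each grey line is the searched window. H2-Eb1 and H2-DMb1 carry both boxes in order, H2-Aa and H2-DMb2 a Y box only, and the H2-DMa start shown has a lone X core 227 bases upstream. X boxes that depart from the searched letters are not drawn.

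Class II RNA was abundant in unstimulated BMDMs. Cd74 ranked 17 among the 11191 rows by mean control FPKM, H2-Aa ranked 66 and H2-Ab1 ranked 97. The H2-M genes stood lower, from rank 1254 for H2-DMb1 to 3519 for H2-DMb2, and Ciita stood at 6681. The 8 members together made up 0.855% ± 0.147 of the summed FPKM in control samples, 1.31% ± 0.142 with IL-4, 0.932% ± 0.0929 with LPS and 1.62% ± 0.202 with IL-4 then LPS (SD, n = 3). Among the other class II genes, H2-Oa and H2-Ob, which encode the H2-M inhibitor H2-O, reached at most 0.667 and 0.337 FPKM. H2-Eb2 reached at most 0.0761 FPKM, and the I-E alpha pseudogene H2-Ea-ps was listed at 0 in every sample. No RNA of an I-E alpha partner for H2-Eb1 was thus seen, and H2-Eb1 RNA is not read here as a level of I-E molecules. In bulk RNA of this kind, fewer cells that express a gene and less RNA per cell cannot be told apart.

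Summed FPKM was 457583 to 495025 per sample. Relative depths recovered from the steps between low values spanned 0.991 to 3.297 times the first control sample. The deposited values carry no read counts, so no counting interval is given. As a sum, markers of macrophages were high throughout, though single markers fell. The 7 listed genes, such as Csf1r and Cd68, summed to between 4086.5 and 4265.8 FPKM in control samples and 2935.8 and 3185.0 with IL-4. The sums were between 3101.2 and 3380.6 FPKM with LPS and 2475.2 and 2624.7 with both. IL-4 alone lowered 5 of the 7 and raised 1, where 21.0% of all rows were lower and 16.0% higher. With both agents all 7 were lower than in control samples, and 4 after median scaling, where 56.4% of all rows were lower as deposited. Fcgr1 had means of 65.6 FPKM in control samples, 16.3 with IL-4 and 15.9 with both. Of 5 B cell markers only Cd79b passed 1 FPKM, and Pax5 was at or near 0. Cd79b had means of 2.51 FPKM in control samples, 0.829 with IL-4, 0.762 with LPS and 3.40 with both. Its log2 fold change was -0.99 with LPS (lost with quantile normalization, at -0.44) and 1.29 for IL-4+LPS against LPS, with an interaction of 2.23 (adjusted p = 0.00122). Of 6 T or NK cell markers only Cd4 passed 1 FPKM. Of 8 dendritic cell markers 4 were tested, and of these Itgax and Batf3 rose with IL-4 and none fell, beside the same shares of all rows. The list summed to between 36.1 and 50.2 FPKM in control samples and between 376 and 400 FPKM with IL-4. It summed to between 26.2 and 36.1 FPKM with LPS and between 326 and 388 FPKM with both. Zbtb46 had means of 0.518 FPKM with LPS and 2.42 FPKM with IL-4+LPS, a log2 fold change of 1.16 (adjusted p = 5.47e-05). Flt3, Xcr1, Clec9a and Cd209a stayed under 1 FPKM in every sample. The part of these marker shifts in the class II values below was not tested. Replicate 1 gave the lowest value of 7 of the 8 members in control samples, of all 8 with IL-4, of 5 with LPS and of all 8 with IL-4+LPS. Samples are therefore listed below in the order of replicates 1, 2 and 3.

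The first question was what IL-4 alone did to class II RNA. IL-4 raised 6 of the 8 members by limma on log2(FPKM + 1) with Benjamini-Hochberg adjustment over all 11191 rows, and lowered none. Across all rows, 16.0% were higher and 21.0% lower at the same threshold. The members that rose were the 3 H2-M genes, Ciita, Cd74 and H2-Ab1. H2-Aa and H2-Eb1 did not pass. The median log2 fold change of the members was 0.90, against -0.05 over all rows. The 3 control and 3 IL-4 samples did not overlap for 5 members, a state met by 51.6% of all rows.

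Ciita was at 5.52, 8.12 and 6.54 FPKM in control samples and at 13.2, 15.2 and 13.9 FPKM with IL-4. Every IL-4 sample stood above every control sample. The ratio of the mean FPKM was 2.09, and the log2 fold change was 0.98 ± 0.12 (SE, adjusted p = 0.000119). At these low levels the added pseudocount of 1 makes the log2 value understate the ratio. The row covers all annotated starts of Ciita, so its promoters cannot be told apart, and 3.45% of its exonic bases in GENCODE vM21 overlap exons of Dexi on the opposite strand.

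The 3 H2-M genes rose by nearly the same amount on the log2 scale. H2-DMa went from 37.0, 58.3 and 45.0 FPKM to 104, 127 and 124 FPKM. H2-DMb1 went from 55.4, 62.6 and 51.2 FPKM to 125, 157 and 149.6 FPKM. H2-DMb2 went from 16.1, 20.8 and 18.4 FPKM to 39.2, 49.3 and 55.8 FPKM. No control sample reached any IL-4 sample for any of these genes. Their log2 fold changes were 1.34 ± 0.15, 1.33 ± 0.11 and 1.33 ± 0.13 (SE), with adjusted p of 9.06e-05, 6.71e-06 and 3.21e-05.

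H2-DMb1 and H2-DMb2 are near copies of each other. In GENCODE vM21, 27.2% of the 50-base words of the longest H2-DMb1 transcript and 30.9% of those of H2-DMb2 occurred in another gene, chiefly the other copy, so the split of fragments between them is uncertain. H2-DMb2 stood at 0.328 ± 0.0344 of the H2-DMb1 FPKM in control samples, 0.334 ± 0.0337 with IL-4, 0.320 ± 0.0309 with LPS and 0.322 ± 0.0280 with both (SD, n = 3). The ranges of this ratio overlapped between all groups.

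The invariant chain rose less than H2-M. Cd74 was at 1853.7, 2657.9 and 2297.0 FPKM in control samples and at 3449.9, 4280.2 and 4210.0 FPKM with IL-4, with no overlap. Its log2 fold change was 0.82 ± 0.18 (SE, adjusted p = 0.0051), and with no expression filter the adjusted p was 0.0654.

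The I-A and I-E chains moved least. H2-Aa was at 621, 889.6 and 766 FPKM in control samples and at 855, 967 and 963 FPKM with IL-4. H2-Ab1 was at 419, 613 and 523 FPKM and then at 592, 754 and 749 FPKM. H2-Eb1 was at 233, 345 and 279 FPKM and then at 256, 310.3 and 306 FPKM. For all of these chains control replicate 2 stood above the lowest IL-4 sample, so the groups overlapped. The log2 fold changes were 0.30 ± 0.12 for H2-Aa (SE, 95% interval 0.03 to 0.58, adjusted p = 0.0809), 0.44 ± 0.15 for H2-Ab1 (adjusted p = 0.0397) and 0.04 ± 0.15 for H2-Eb1 (95% interval -0.29 to 0.37, adjusted p = 0.863). The H2-Ab1 call was lost without control replicate 1 (log2 fold change 0.29, adjusted p = 0.14), without control replicate 3 (adjusted p = 0.0787), without IL-4 replicate 2 or IL-4 replicate 3 (adjusted p = 0.127 for each) and in 3 other leave-one-out fits, with quantile normalization (adjusted p = 0.0837), with no expression filter (adjusted p = 0.106) and with only these groups in the fit (adjusted p = 0.0947). H2-Aa passed without control replicate 2, at 0.43 (adjusted p = 0.0226), and with replicates 2 and 3 only, at 0.23 (adjusted p = 0.0485). It also passed with the replicate number as a block, at 0.30 (adjusted p = 0.00427).

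**Figure D2:**
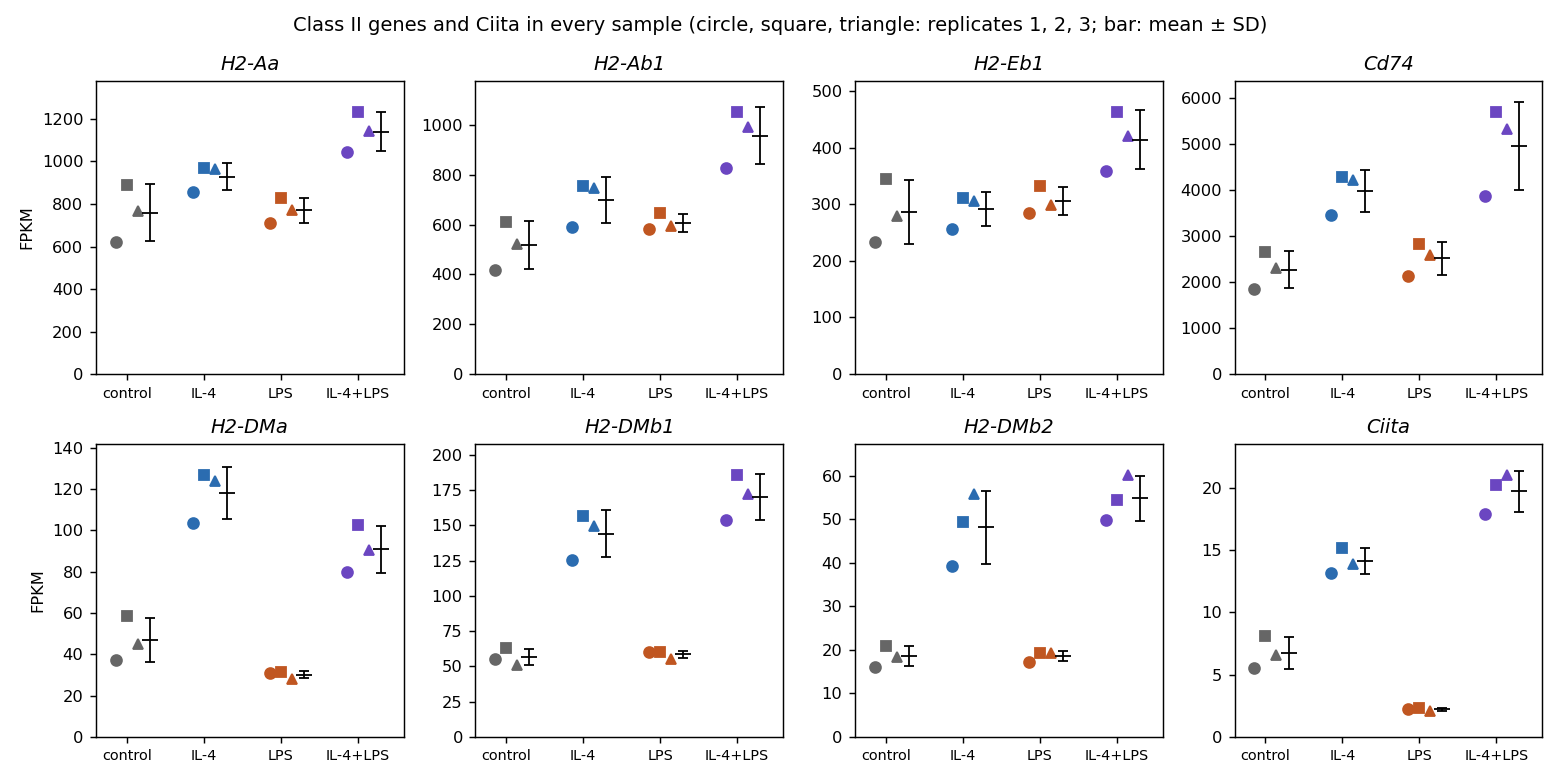
FPKM of the 8 members in each of the 12 samples, with a linear axis from 0 in each panel; symbols mark replicates 1 (circle), 2 (square) and 3 (triangle), and the bars give mean ± SD (n = 3). The IL-4+LPS samples stand above the LPS samples in all panels, while Ciita and H2-DMa fall below control with LPS alone, to means of 2.21 and 30.1 FPKM.

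The second question was what LPS did to cells without IL-4. Most rows were lower with LPS on the deposited scale, and whether this was a shift of scale or a broad fall in RNA was not tested. Median scaling divides each sample by the median of the rows expressed in all samples. The median log2 fold change over all rows was -0.44 as deposited, -0.12 with quantile normalization and -0.14 after median scaling. Values are therefore given beside that median. On the deposited scale 2 members fell, Ciita and H2-DMa, and none rose, where 57.7% of all rows were lower and 16.9% higher. The median of the members was 0.04. After median scaling 6 members were higher and only Ciita was lower, whereas with quantile normalization the calls were 0 higher and 2 lower. Of the 11191 rows, 1887 were higher as deposited, 2966 after median scaling and 2903 with quantile normalization. For H2-Aa, H2-Ab1 and H2-Eb1 the direction itself depended on the scale, with log2 fold changes of 0.03, 0.24 and 0.11 as deposited, -0.21, -0.06 and -0.10 with quantile normalization, and 0.40, 0.61 and 0.48 after median scaling.

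Ciita dropped in every LPS sample, to 2.23, 2.32 and 2.09 FPKM. The LPS samples lay in a narrow band, and the lowest control sample was above all of them. The mean was 3.04-fold lower than in control samples, with a log2 fold change of -1.25 ± 0.12 (SE, adjusted p = 3.69e-06). The change stayed lower at -0.72 with quantile normalization (adjusted p = 0.000393) and at -0.96 after median scaling (adjusted p = 2.72e-05).

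H2-DMa, the alpha chain of H2-M, was at 31.1, 31.2 and 28.1 FPKM with LPS, all below the lowest control sample. Its log2 fold change of -0.60 ± 0.15 (SE, adjusted p = 0.00466) was 0.15 below the median of all rows, and after median scaling it was -0.24 (adjusted p = 0.189). The H2-M beta chains did not follow it. H2-DMb1 was at 60.2, 59.8 and 55.4 FPKM, with a log2 fold change of 0.05 (95% interval -0.18 to 0.29, adjusted p = 0.661). H2-DMb2 was at 17.3, 19.3 and 19.3 FPKM, with a log2 fold change of 0.02 (95% interval -0.27 to 0.31, adjusted p = 0.905). Both overlapped their control samples.

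The parting of the H2-M chains was visible within samples, where the scale of the sample cancels. The H2-DMa to H2-DMb1 ratio was 0.667, 0.931 and 0.879 in control samples and 0.829, 0.809 and 0.827 with IL-4. It was 0.516, 0.521 and 0.507 with LPS and 0.519, 0.553 and 0.526 with IL-4 then LPS. All 6 samples with LPS stood below all 6 samples without it, and the ranges with and without IL-4 overlapped in either case. The pattern was noticed in these values, and no test of it is given. In GENCODE vM21, 360 exonic bases of H2-DMa, 10.4% of its total, overlap exons of Brd2 on the opposite strand, and the library kit did not mark strand. Brd2, a chromatin reader, moved the other way with LPS, from 54.5 ± 2.13 to 91.4 ± 5.38 FPKM (SD, n = 3), and the part of such reads in H2-DMa was not tested.

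Cd74 and the class II chains stayed near their control levels on the deposited scale. Cd74 was at 2125.7, 2831.0 and 2590.0 FPKM with LPS, with a log2 fold change of 0.15 (95% interval -0.24 to 0.55, adjusted p = 0.452). H2-Aa was at 713, 827 and 771 FPKM, H2-Ab1 at 581, 647 and 593 FPKM, and H2-Eb1 at 284, 333 and 299 FPKM. For each of these genes the LPS samples overlapped the control samples. Groups did not overlap for 2 of the 8 members, against 76.6% of all rows.

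The third question was whether IL-4 pretreatment altered class II RNA in LPS-exposed cells. All 8 members were higher in IL-4+LPS than in LPS samples, where 15.0% of all rows were higher and 15.8% lower. With the replicate number as a block, which the samples of this comparison supported, all 8 stayed called and the lower rows over the whole table went from 1771 to 2667. The values and alternatives printed below for this comparison are from fits without that block. The median of the members was 1.24, against -0.03 over all rows. The groups did not overlap for any of the 8, a state met by 42.2% of rows.

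Ciita showed the widest gap, with 17.9, 20.2 and 21.0 FPKM in IL-4+LPS samples, all far above the LPS samples and above the IL-4 samples too. Its mean was 8.9-fold that of LPS samples, with a log2 fold change of 2.68 ± 0.12 (SE, adjusted p = 1.08e-07). H2-DMa was at 79.7, 102.5 and 90.4 FPKM, H2-DMb1 at 154, 186 and 172 FPKM, and H2-DMb2 at 49.7, 54.5 and 60.1 FPKM. The log2 fold changes of these H2-M genes were 1.56 ± 0.15, 1.52 ± 0.11 and 1.50 ± 0.13 (SE), with adjusted p of 3.21e-05, 2.81e-06 and 1.4e-05. Cd74 was at 3875.0, 5680.4 and 5319.9 FPKM, with a log2 fold change of 0.97 ± 0.18 (SE, adjusted p = 0.00222).

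The I-A and I-E chains rose less than the other members here too. H2-Aa was at 1045, 1230.5 and 1144 FPKM, with a log2 fold change of 0.56 ± 0.12 (SE, adjusted p = 0.00609). H2-Ab1 was at 828, 1050.8 and 992 FPKM, with 0.65 ± 0.15 (adjusted p = 0.00718). H2-Eb1 was at 358, 462 and 421 FPKM, with 0.43 ± 0.15 (adjusted p = 0.0465). The H2-Eb1 call was the least stable. It was lost in 8 of the 12 leave-one-out fits, namely without control replicate 3, IL-4 replicates 2 or 3, any LPS replicate, or IL-4+LPS replicates 2 or 3, with adjusted p from 0.0552 to 0.154, and it was lost with no expression filter (adjusted p = 0.125), with quantile normalization (adjusted p = 0.0868) and with no intensity trend (adjusted p = 0.0503).

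**Figure D3:**
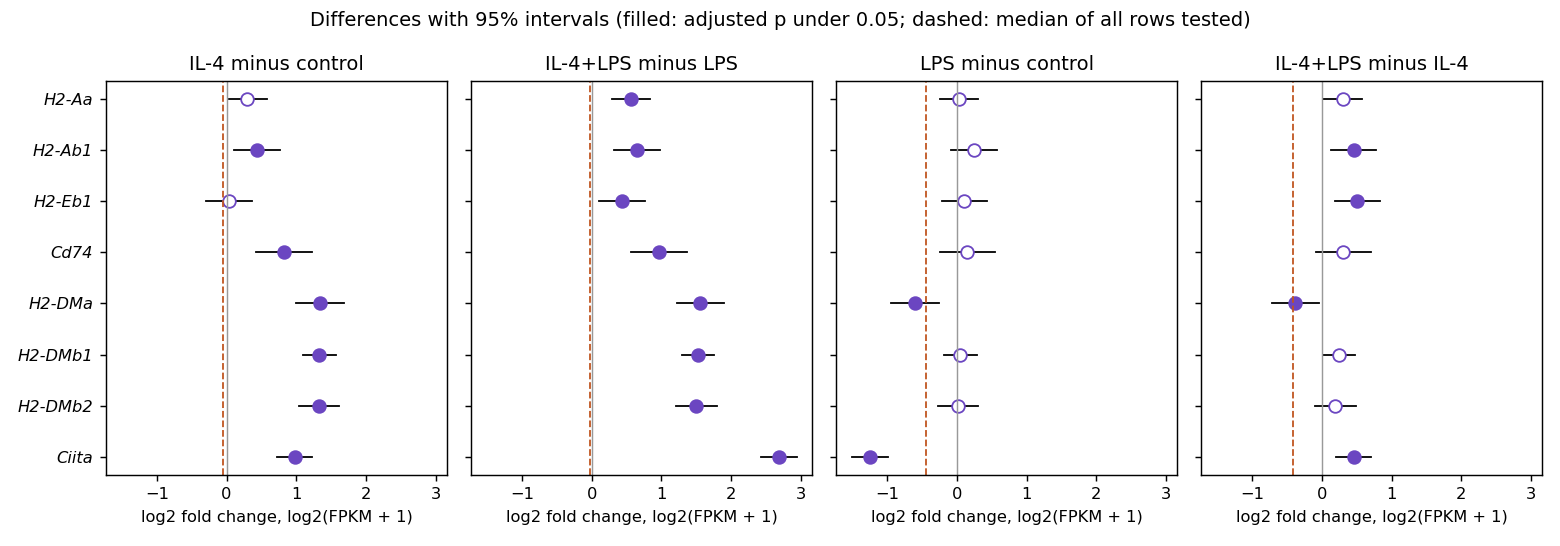
Log2 fold changes on log2(FPKM + 1) with 95% limma intervals for the 8 members in 4 comparisons; filled points passed an adjusted p of 0.05 and the dashed line is the median over all 11191 rows. The points for IL-4 lie to the right of that median for every member with and without LPS. For H2-Eb1 with IL-4 alone the interval, -0.29 to 0.37, covers the median, and the value was -0.13 with quantile normalization. Ciita is far to the left of the median for LPS alone, at -1.25 against -0.44. For LPS after IL-4 it is to the right, at 0.46 against -0.41.

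The LPS effect was then compared with and without IL-4. After IL-4, LPS raised 3 members, H2-Ab1, H2-Eb1 and Ciita, and lowered H2-DMa, where 15.0% of all rows were higher and 57.9% lower. The median of the members was 0.30, against -0.41 over all rows, and 5 members did not overlap between IL-4 and IL-4+LPS samples, as did 74.6% of rows. After median scaling 7 members were higher and none lower, where 2629 of the 11191 rows were higher and 4057 lower. H2-Ab1 had a log2 fold change of 0.46 ± 0.15 (SE, adjusted p = 0.0172), and its call was lost without IL-4 replicate 1 (adjusted p = 0.0686), without IL-4+LPS replicate 2 or 3 (adjusted p = 0.0642 and 0.052) and with quantile normalization (adjusted p = 0.179). H2-Eb1 had 0.50 ± 0.15 (SE, adjusted p = 0.00996). Without IL-4+LPS replicate 1, H2-Aa, H2-DMb1 and Cd74 also passed, which made 6 higher members. H2-DMa had a log2 fold change of -0.38 ± 0.15 (SE, adjusted p = 0.0461), close to the median of all rows, and its call was lost after median scaling (-0.02, adjusted p = 0.945) and in 8 of the 12 leave-one-out fits, namely without control replicate 3, IL-4 replicates 2 or 3, any LPS replicate, or IL-4+LPS replicates 1 or 3, with adjusted p from 0.0553 to 0.146.

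Ciita was the member whose LPS response differed with IL-4. LPS changed it by -1.25 without IL-4 and by 0.46 ± 0.12 after IL-4 (SE, adjusted p = 0.00481), both on the log2 scale. The interaction, which is the LPS effect after IL-4 minus the LPS effect without it, was 1.71 ± 0.16 (SE, 95% interval 1.34 to 2.07, adjusted p = 0.000229). It ranged from 1.58 to 1.82 when each sample was left out, and was 1.41 with quantile normalization and 1.76 after median scaling, past the threshold in each. For the other 7 members the interaction did not pass, with values from 0.15 for Cd74 to 0.39 for H2-Eb1 and adjusted p from 0.289 to 0.778. Over all rows the interaction was higher in 4.58% and lower in 4.63%. The intervals of these 7 were wide, from -0.41 to 0.71 for Cd74 and from -0.07 to 0.85 for H2-Eb1. These values are from the fit without the replicate block, and with it H2-Eb1 passed (adjusted p = 0.0221).

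Against untreated cells, the IL-4+LPS samples were higher for all 8 members, with 17.9% of all rows higher and 56.4% lower. The log2 fold changes ran from 0.54 ± 0.15 for H2-Eb1 (SE, adjusted p = 0.00614) to 1.58 ± 0.11 for H2-DMb1 (adjusted p = 3.16e-07). These values share the control samples with the single-agent comparisons. Between the single agents, 5 members were lower with LPS than with IL-4 and none higher, where 55.2% of rows were lower and 18.5% higher. With quantile normalization 7 were lower, H2-Aa and H2-Ab1 included. After median scaling 4 were lower and H2-Eb1 was higher, at 0.42 (adjusted p = 0.0273), and the Cd74 call was lost (-0.32, adjusted p = 0.153). Ciita was 6.36-fold lower and H2-DMa 3.92-fold lower in mean FPKM.

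The order of the 4 group means placed IL-4+LPS highest for 7 members, and IL-4 highest for H2-DMa. For Ciita all neighbours in the order LPS, control, IL-4 and IL-4+LPS differed past the threshold. For H2-DMa so did all neighbours in the order LPS, control, IL-4+LPS and IL-4, but only on the deposited scale. After median scaling its steps from LPS to control and from IL-4+LPS to IL-4 did not pass (adjusted p = 0.189 and 0.945). The call of the latter step was also lost in most leave-one-out fits, as given above. For H2-DMb1, H2-DMb2 and Cd74 only the step from LPS to IL-4 passed among neighbours, and that of Cd74 was also lost with no expression filter (adjusted p = 0.0797). For H2-Aa no neighbours differed (adjusted p of 0.813, 0.0719 and 0.0523 in rising order). For H2-Ab1 only the step from IL-4 to IL-4+LPS passed, and for H2-Eb1 only the step from LPS to IL-4+LPS.

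The members were also uneven within a sample. Cd74 stood at 2.99, 2.99 and 3.00 times the H2-Aa FPKM in control samples, and at 4.04, 4.43 and 4.37 times with IL-4. This ratio was 2.98, 3.42 and 3.36 with LPS and 3.71, 4.62 and 4.65 with IL-4+LPS, so the samples with IL-4 stood above those without it. H2-DMb1 stood at 0.111 ± 0.0187 of H2-Ab1 in control samples, 0.206 ± 0.00603 with IL-4, 0.0965 ± 0.00619 with LPS and 0.178 ± 0.00622 with both (SD, n = 3). H2-Eb1 went the other way, from 0.551 ± 0.0157 of H2-Ab1 in control samples to 0.418 ± 0.0131 with IL-4, and from 0.502 ± 0.0131 with LPS to 0.432 ± 0.00785 with both.

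**Figure D4:**
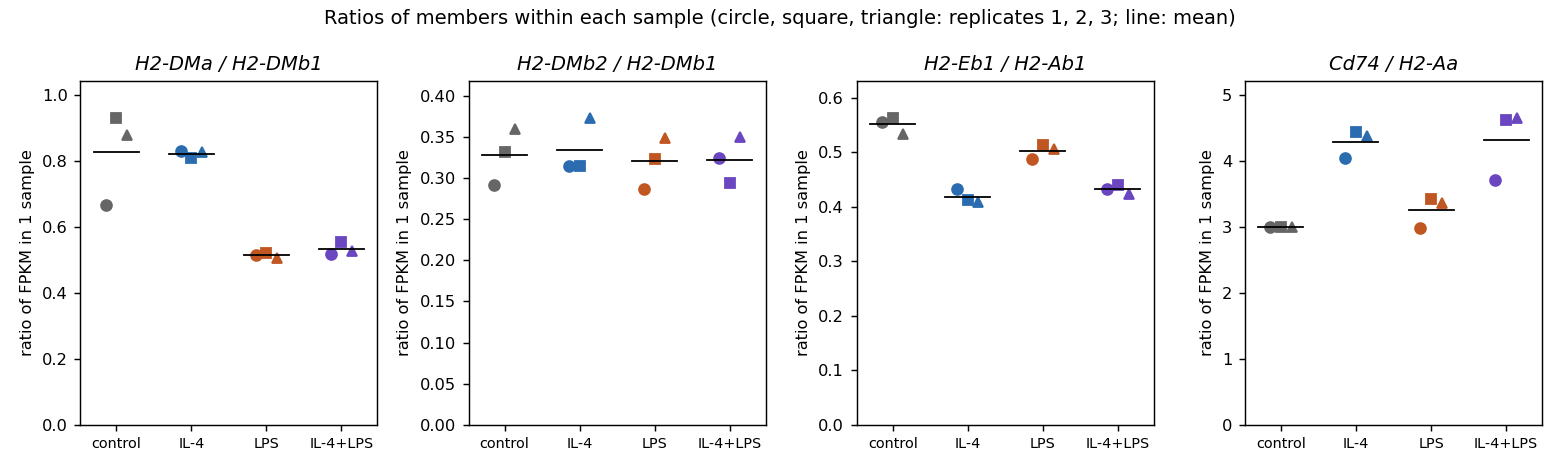
Ratio of the FPKM of 2 members within each sample, by group, with linear axes from 0; symbols mark replicates 1 to 3 and lines the means. The H2-DMa to H2-DMb1 ratio is near 0.82 without LPS and near 0.52 with it, the H2-DMb2 to H2-DMb1 ratio overlaps in all groups, and the H2-Eb1 to H2-Ab1 and Cd74 to H2-Aa ratios separate samples with IL-4 from samples without it.

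Across the 12 samples, the Pearson r of log2(FPKM + 1) between members ran from 0.373 for H2-Eb1 and H2-DMa to 0.988 for H2-DMb1 and H2-DMb2. Ciita was nearest to H2-DMa (r = 0.927) and farthest from H2-Eb1 (r = 0.489). These points share the 4 groups, so the values describe the pattern over groups more than over samples. Among 8263 rows with a group mean of at least 5 FPKM, the rows most like Ciita were Npc2 (r = 0.980), Tmco4 (0.975), Galm (0.973), Apbb2 (0.970) and Blnk (0.970). Blnk, an adaptor of B cell receptor signalling, had means of 52.9, 70.7, 31.9 and 94.7 FPKM in the order control, IL-4, LPS, IL-4+LPS. The rows most like the mean of H2-Aa, H2-Ab1 and H2-Eb1 were Trpm4 (0.968), Ier5 (0.960), Ccne1 (0.959), Ppap2b (0.958) and Atp13a1 (0.938).

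Ciita acts through an assembly on the X and Y boxes, the enhanceosome of RFX, NF-Y and CREB factors. Of its 7 listed genes, IL-4 raised only Nfya, by 0.31 on the log2 scale (adjusted p = 0.0289), and lowered none. Across all rows 16.0% were higher and 21.0% lower with IL-4. LPS raised Rfx5 and Nfyb and lowered Rfxap, Rfxank, Nfya and Nfyc on the deposited scale, where 16.9% of all rows were higher and 57.7% lower. The list median was -0.41, beside -0.44 for all rows. Rfxank, an RFX subunit, went from 3.29 ± 0.211 to 1.09 ± 0.416 FPKM and Rfxap from 7.64 ± 0.921 to 3.23 ± 0.769 FPKM (SD, n = 3). Rfx5, the DNA-contacting subunit, went from 2.43 ± 0.298 to 4.22 ± 0.626 FPKM. The falls of Nfya and Nfyc did not pass after median scaling, and that of Nfyc did not with quantile normalization, while Creb1 passed as higher under both, at 0.56 and 0.66. With IL-4+LPS against LPS, only Nfyb passed the threshold, and it fell by 0.73 (adjusted p = 4.93e-05). Of all rows, 15.0% were higher and 15.8% lower in that comparison.

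Among 15 tested regulators upstream of Ciita, IL-4 raised 5 and lowered 5, where 16.0% of all rows were higher and 21.0% lower. The largest rises were in Socs1, an inhibitor of JAK kinases that went from 0.829 ± 0.373 to 31.5 ± 1.56 FPKM, and in Irf4, which went from 1.36 ± 0.184 to 19.9 ± 0.698 FPKM (SD, n = 3). Falls with IL-4 included Ifngr1 at -0.82, Irf8 at -0.74, Prdm1 at -0.49 and Usf1 at -0.38 on the log2 scale. LPS raised 9 and lowered 5, where 16.9% of all rows were higher and 57.7% lower. Socs3 had a log2 fold change of 8.05, Socs1 of 4.98, Jak2 of 4.05 and Irf1, an interferon response factor that binds a Ciita promoter, of 3.56. With LPS, Irf8 fell by 1.29, Irf4 fell by 1.06, and Stat6, which carries the IL-4 signal, fell by 0.88. These directions held under both other scalings. Ifng itself reached at most 0.167 FPKM.

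With IL-4+LPS against LPS, 5 of these regulators were higher and 4 lower, where 15.0% of all rows were higher and 15.8% lower. The lower ones were Prdm1 at -0.48, Ifngr2 at -0.45, Usf1 at -0.42 and Jak1 at -0.40 on the log2 scale. The higher ones were Socs1, at 0.96, and the genes that follow. Irf8, a partner of the factor PU.1, went from 32.0 ± 1.23 to 179 ± 40.7 FPKM and Irf4 from 0.129 ± 0.104 to 3.75 ± 0.203 FPKM (SD, n = 3). Irf1 was at 474 ± 60.2 and 822 ± 60.4 FPKM, and Stat6 at 39.0 ± 1.92 and 55.7 ± 2.84 FPKM. Irf8 shared with Ciita an LPS response that was negative without IL-4 and positive after it, at -1.29 and 1.88 on the log2 scale, with an interaction of 3.16 ± 0.22 (SE, adjusted p = 2.62e-05). Irf8 fell with IL-4 alone (-0.74, adjusted p = 0.00378), where Ciita rose.

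Among 11 genes for making class II peptides, IL-4 raised Ctss, Ctsl, Ctsz, Ifi30 and Cst3 and lowered Ctsd and Lgmn. Over all rows 16.0% were higher and 21.0% lower. Ctss, the protease that trims the invariant chain, went from 3116 ± 629 to 4929.8 ± 468 FPKM, and Ifi30, a lysosomal thiol reductase, went from 269 ± 18.8 to 503 ± 19.6 FPKM (SD, n = 3). The calls of Cst3 and Ctsd were lost with quantile normalization. With LPS, 9 were lower and none higher as deposited, 11 were lower with quantile normalization, and 7 were lower and 1 higher after median scaling. The list median for LPS was -0.56, beside -0.44 for all rows, of which 57.7% were lower as deposited. In IL-4+LPS against LPS samples, 7 were higher and none lower, led by Ifi30 at 1.41 and Ctsl at 0.94 on the log2 scale. With quantile normalization 5 were higher. Of all rows, 15.0% were higher and 15.8% lower on the deposited scale.

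**Figure D5:**
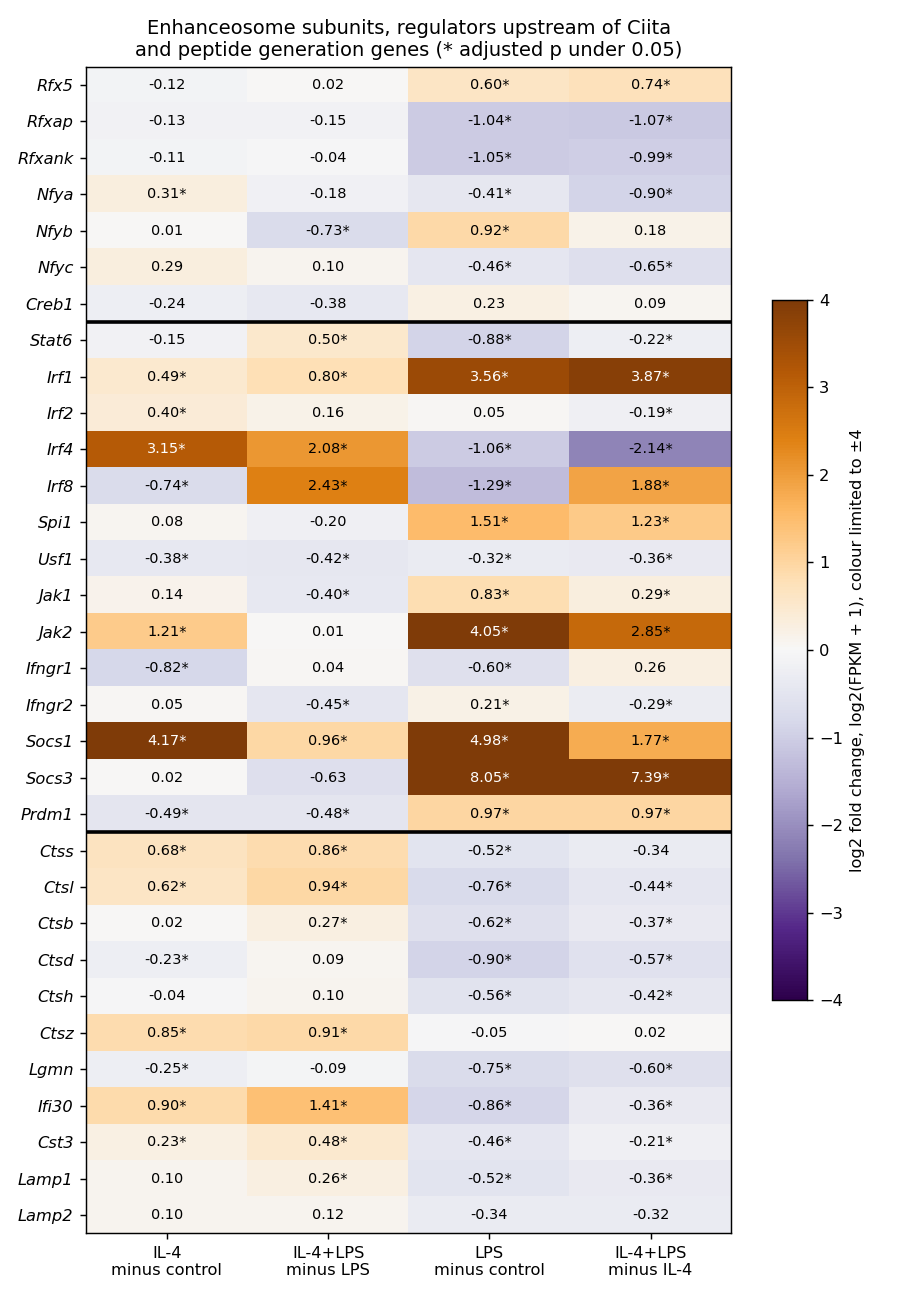
Log2 fold changes on log2(FPKM + 1) of enhanceosome genes (top), the regulators upstream of Ciita that are reported by name (middle) and peptide generation genes (bottom) in 4 comparisons, with an asterisk where the adjusted p was under 0.05; the colour scale is limited to ±4. Only 1 enhanceosome gene passes in each of the IL-4 columns, while Socs3 reaches 8.05 with LPS.

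Of 7 genes for class II turnover and trafficking, IL-4 raised Ap2m1, Cd9 and Cd63 and lowered Cd82. Of all rows, 16.0% were higher and 21.0% lower. Ap2m1, a subunit of the endocytic adaptor AP-2, went from 118 ± 16.3 to 292 ± 40.1 FPKM (SD, n = 3). March1, the ligase that marks surface class II for degradation, went from 17.4 ± 6.22 to 35.2 ± 11.1 FPKM with LPS (log2 fold change 0.99, adjusted p = 0.0153) and was at 15.3 ± 3.6 FPKM with IL-4+LPS. Against LPS alone that was a log2 change of -1.13 (adjusted p = 0.0204). LPS raised March1 and Cd82 and lowered the other 5 genes, where 16.9% of all rows were higher and 57.7% lower. The list median for LPS was -0.48, beside -0.44 for all rows. The falls of Ap1m1, Ap2m1 and Cd63 did not pass after median scaling. With IL-4+LPS against LPS, 3 of the 7 were higher and 2 lower, where 15.0% of all rows were higher and 15.8% lower.

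The class II genes of chromosome 17 lie among genes of the class I pathway. The files place H2-DMa at chr17:34122832-34139101, H2-DMb2 at chr17:34145416-34151095 and H2-DMb1 at chr17:34153191-34160229, all on the plus strand. H2-Ab1 lies at chr17:34263227-34269418 on the plus strand, H2-Aa at chr17:34282751-34287771 on the minus strand and H2-Eb1 at chr17:34305867-34316674 on the plus strand, with Ciita on chromosome 16 and Cd74 on chromosome 18. The 5 tested neighbours, Tap1, Tap2, Psmb8, Psmb9 and Brd2, rose with LPS in all 3 scalings. On the deposited scale 16.9% of all rows were higher. Tap1, a peptide transporter for class I molecules, went from 21.5 ± 2.72 to 129 ± 18.0 FPKM (SD, n = 3). With IL-4, 1 of the 5 rose, Psmb8 by 0.36 on the log2 scale, and 1 fell, Tap1 by 0.43 (adjusted p = 0.0489), a call that was lost after median scaling. In the same locus, LPS on the deposited scale lowered 1 of the 6 class II members on chromosome 17, H2-DMa, and raised none. Of all rows, 57.7% were lower on that scale. After median scaling LPS raised 5 of the 6 and lowered none, where 2966 of the 11191 rows were higher.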

How the data were processed

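Poly-A RNA of 12 BMDM samples, 3 per group, was measured with an unstranded TruSeq kit and paired reads. The authors deposited FPKM values, 1 table per sample. The submitters' processing notes name TopHat2 2.0.7, Cufflinks 2.0.2 and mm10, and the gene annotation is not given in the sources used here. Since FPKM is a share of each library, a rise of some genes lowers the values of others. The LPS dose is that of the labels, and the study's methods state it in another unit.

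Rows with at least 1 FPKM in at least 1 sample were tested on log2(FPKM + 1) with limma 3.58.1 (R 4.3.3, intensity trend, group means over all 12 samples). P-values were Benjamini-Hochberg adjusted per comparison over 11191 rows, with a threshold of 0.05, and are two-sided. The model was tested on simulated data. Tables and plots used Python 3.11.15 and matplotlib 3.10.9.

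The members and lists were chosen with earlier results of these data known. Named genes were all members, the list genes with the largest changes past the threshold in each direction (up to 4), and the 5 rows most like Ciita or the class II chains. Some list genes are counted but not reported here by name. Replicate numbers are shared between groups. Deviations from the group means correlated between same-numbered samples at 0.119 to 0.386 in all 3 pairs of IL-4+LPS and LPS. The data thus supported pairing by number there, and the block is reported as an alternative. The SE and adjusted p printed for that comparison come from the fit without the block. In the other comparisons the lowest r was 0.00236 to 0.0758.

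Alternatives changed the pseudocount, filter, scaling, trend, groups in the fit, replicate block and samples included.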

Additional observations from a re-analysis of the deposited data

Results flagged for a closer look

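The LPS response of Ciita differed between cells with and without IL-4 by a test of the difference itself: the limma interaction was 1.71 on the log2(FPKM + 1) scale. Ciita was lower with LPS in all 3 samples without IL-4 pretreatment and higher with LPS in all 3 samples with it, relative to every sample of the matching group without LPS. No other member passed that test, except H2-Eb1 when the replicate number was a block.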

How the results depend on the processing

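Of 1224 recomputed member values, 1121 kept their direction and side of the threshold, 42 lost a call, 41 gained one and 20 changed sign. Scaling mattered most for the LPS comparisons. Median scaling gave 6 members higher and 1 lower for LPS against control, 7 higher and 0 lower for IL-4+LPS against IL-4, and 1 higher for LPS against IL-4. With no expression filter no member was lower for IL-4+LPS against IL-4, and with replicates 2 and 3 only 5 were higher. The replicate block gave 7 members higher for IL-4 against control, adding H2-Aa (0.30, adjusted p = 0.00427), 7 lower for LPS against IL-4, adding H2-Aa (adjusted p = 0.00365) and H2-Ab1 (adjusted p = 0.0328), 2 higher for LPS against control, 7 for IL-4+LPS against IL-4 and 2 for the interaction, adding H2-Eb1 (0.39, adjusted p = 0.0221). Leaving out each sample gave 0 to 1 members higher for LPS against control, and 2 to 6 higher and 0 to 1 lower for IL-4+LPS against IL-4. Without control replicate 2, H2-Ab1 passed for LPS against control (0.37, adjusted p = 0.045). Outside the pair of IL-4+LPS and LPS, pairing by number was less clear over all rows, and 7 of 12 samples correlated best with a sample of their own number. Among the 8 members, replicate 1 was lowest for 7 in control, 8 with IL-4, 5 with LPS and 8 with IL-4+LPS. The SE of H2-Aa for IL-4 against control was 0.12 without the block and 0.06 with it. Calls that did not pass without the block thus depend on that choice.

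Values that changed sign were small. With quantile normalization H2-Eb1 became -0.13 for IL-4 against control, H2-Aa -0.21, H2-Ab1 -0.06 and H2-Eb1 -0.10 for LPS against control, and H2-DMb2 -0.02 for the interaction. With replicates 2 and 3 only, H2-Eb1 became -0.01 for IL-4, and H2-Aa -0.05 and H2-DMb2 -0.02 for LPS. Median scaling gave 0.08 for H2-Aa and 0.15 for H2-Ab1 for LPS against IL-4. When single samples were left out, ranges crossed 0 for H2-Eb1 with IL-4 (-0.10 to 0.19), for LPS against IL-4 (-0.02 to 0.12), and with LPS for H2-Aa (-0.10 to 0.16), H2-Eb1 (-0.03 to 0.26), H2-DMb1 (-0.01 to 0.13) and H2-DMb2 (-0.07 to 0.10). H2-Aa and H2-Eb1 lost the call for IL-4+LPS against control with quantile normalization (adjusted p = 0.0734 and 0.151).

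Over all rows, LPS against control gave 1887 higher, 2903 with quantile normalization and 2966 after median scaling. IL-4+LPS against IL-4 gave 1682 higher and 6474 lower, then 2629 higher and 4057 lower after median scaling and 4173 lower with quantile normalization. IL-4+LPS against control gave 2001 higher and 6311 lower, then 3112 higher and 4201 lower with quantile normalization and 3299 higher after median scaling. IL-4+LPS against LPS gave 1771 lower and 2881 with replicates 2 and 3 only. The interaction gave 512 higher and 518 lower, 1145 and 1095 with the replicate block, 1459 and 1393 with replicates 2 and 3 only, 324 and 332 without IL-4 replicate 3, and 307 and 333 without LPS replicate 3. The cause of these shifts was not tested. Read counts were not used here, so no limit of detection is given.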
